A study of Mus musculus with 15 samples.

Results

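The pre-mRNA splicing genes described here were the 47 genes, of 18193 genes on the array with a single assigned symbol, whose symbol starts with Srsf, Hnrnp, Snrp, Sf3a or Sf3b. They were 10 SR proteins, 19 hnRNP proteins, 6 Sm core proteins, 3 other snRNP proteins and 9 subunits of the SF3A and SF3B complexes. The choice used symbols alone and no measured value. They were represented by 139 of 45037 probe sets, and each gene was read from its probe set with the highest mean signal. The signal filter was passed by 45 of the 47, among 12701 genes in all. Srsf12 and Snrpn did not pass: their rescaled signals lay between 1.09 and 70.5 and between 5.94 and 25.0 over the 15 arrays, and they entered no test.

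The study asked which transcripts of a dendritic cell line move with reactive oxygen species (ROS) when cells meet a contact allergen. RNA came from a mouse line of A/J background that the labels describe as dendritic cells derived from newborn epidermis, in 5 groups of 3 arrays: non-treated cells; cells given dinitrofluorobenzene (DNFB), a hapten that binds proteins and sensitises skin; cells given hydrogen peroxide (H2O2); cells given diphenyl iodonium (DPI), the ROS inhibitor of the design; and cells given DPI with DNFB. All groups are 1 cell line without genetic change, and doses, times and the identity of the vehicle were not given in the sources used here. Whether the 3 arrays of each group stand for separate cultures is not in the labels; the p-values reflect only how far those arrays differ, and that can be technical. In such bulk RNA, less RNA per cell and fewer cells of a kind cannot be told apart.

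Introns are removed by the spliceosome, which is built from small nuclear ribonucleoproteins (snRNPs) that each carry an RNA and a ring of Sm proteins. The U1 snRNP reads the 5' splice site, and the U2 snRNP, through its SF3A and SF3B complexes, settles on the branch point. SR proteins mostly bind exons and recruit the machinery, whereas hnRNP proteins coat nascent RNA and often oppose them; many of these genes also make transcripts with poison exons through which they limit their own level, and in dendritic and other immune cells they shape the isoforms made on activation.

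Promoter sequences are shown for 6 members whose signals the results turn on: 4 Sm core genes that were higher with DPI and DNFB together than with DNFB alone, and Srsf2 and Hnrnpd, which had the largest falls with DNFB. The windows run from 250 bases before to 50 bases after the annotated start, 5' to 3' on the gene's strand, from RefSeq on GRCm38.p6, where 42 of the 47 members had an entry. Capitals mark matches, on either strand, to the motifs searched. Their letters were CCGGAAG (ETS core), CACGTG (E-box, palindromic, so that a match counts on both strands), CCAAT, TGACNNNGC (core of the antioxidant response element) and, for the heat shock element, GAA, TTC and GAA in a row with NN between them; that of NRF1 was GCGC, AT and GCGC in a row.
Snrpe, chr1:133610231-133610530, minus strand: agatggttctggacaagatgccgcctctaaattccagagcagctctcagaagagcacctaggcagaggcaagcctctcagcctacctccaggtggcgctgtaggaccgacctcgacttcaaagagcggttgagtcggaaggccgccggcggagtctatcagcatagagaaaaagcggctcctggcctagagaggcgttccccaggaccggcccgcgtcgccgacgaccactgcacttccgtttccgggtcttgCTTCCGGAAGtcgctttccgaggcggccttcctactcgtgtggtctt
Snrpf, chr10:93589609-93589908, minus strand: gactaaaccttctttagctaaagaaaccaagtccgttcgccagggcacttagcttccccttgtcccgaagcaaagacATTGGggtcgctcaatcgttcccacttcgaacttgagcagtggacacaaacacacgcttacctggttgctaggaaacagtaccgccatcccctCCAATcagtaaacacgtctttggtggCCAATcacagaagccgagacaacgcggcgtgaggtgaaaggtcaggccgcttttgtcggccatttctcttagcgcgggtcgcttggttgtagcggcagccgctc
Snrpg, chr6:86371290-86371589, plus strand: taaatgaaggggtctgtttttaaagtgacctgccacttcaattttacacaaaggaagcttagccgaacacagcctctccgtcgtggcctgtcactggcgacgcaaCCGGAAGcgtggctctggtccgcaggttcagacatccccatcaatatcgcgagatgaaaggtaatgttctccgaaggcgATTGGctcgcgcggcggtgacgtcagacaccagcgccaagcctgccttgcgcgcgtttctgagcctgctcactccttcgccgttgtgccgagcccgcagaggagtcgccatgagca
Snrpd3, chr10:75517792-75518091, plus strand: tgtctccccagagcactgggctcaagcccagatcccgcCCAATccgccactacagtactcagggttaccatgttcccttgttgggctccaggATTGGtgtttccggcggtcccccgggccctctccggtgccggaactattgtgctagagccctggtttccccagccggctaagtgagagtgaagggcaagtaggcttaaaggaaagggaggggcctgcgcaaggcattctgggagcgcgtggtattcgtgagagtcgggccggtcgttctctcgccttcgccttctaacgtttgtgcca
Srsf2, chr11:116853045-116853344, minus strand: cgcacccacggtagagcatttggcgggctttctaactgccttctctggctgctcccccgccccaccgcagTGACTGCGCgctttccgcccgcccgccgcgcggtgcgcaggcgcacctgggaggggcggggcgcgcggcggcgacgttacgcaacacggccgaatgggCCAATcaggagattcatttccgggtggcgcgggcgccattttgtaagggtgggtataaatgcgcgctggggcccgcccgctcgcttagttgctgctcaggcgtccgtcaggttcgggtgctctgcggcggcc
Hnrnpd, chr5:99978889-99979188, minus strand: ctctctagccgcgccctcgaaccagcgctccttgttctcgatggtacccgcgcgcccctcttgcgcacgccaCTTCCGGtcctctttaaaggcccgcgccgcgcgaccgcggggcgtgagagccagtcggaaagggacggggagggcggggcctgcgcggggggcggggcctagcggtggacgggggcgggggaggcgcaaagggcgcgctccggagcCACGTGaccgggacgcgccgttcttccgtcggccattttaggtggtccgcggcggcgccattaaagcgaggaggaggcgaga

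The capital run of the Snrpe promoter holds 2 ETS cores on opposite strands that overlap, from base 3 to base 12 after the start. Snrpg has 1 ETS core and 1 CCAAT, Snrpf has 3 CCAAT, and Snrpd3 has 2 CCAAT. Srsf2 has 1 CCAAT and 1 match to the antioxidant response element core, and Hnrnpd has 1 ETS core and 1 E-box. Over the 42 member promoters, the ETS core was found in 15 (35.7%), against 9.12% of 27025 promoters of the same length. CCAAT was in 21 (50%, against 37.9%), the antioxidant core in 7 (16.7%, against 12.5%), the E-box in 3 (7.14%, against 7.24%), the heat shock element in 2 (4.76%, against 0.529%) and NRF1 in 0 (against 0.977%). These are letters found in a window, not bound sites.

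The arrays carried a technical difference that touches the DPI + DNFB group. Within groups, arrays correlated at 0.946 to 0.973 over all tested genes. The beta-actin 3'/5' ratio, a measure of RNA integrity, was 1.95 ± 0.405 (SD, n = 3) with DPI + DNFB and lay between 1.19 and 1.53 on the other 12 arrays. DPI + DNFB replicates 1 and 3 (2.07 and 2.29) were above that range and replicate 2 (1.504) was within it, while the median rescaled signal was 113 to 132 with DPI + DNFB against 92.6 to 114. The part of this in the DPI + DNFB results was not tested; counts with the ratio as a covariate are given beside them. The 16 dendritic and myeloid markers all passed the filter, with a summed signal of 106950 to 117930 with DNFB, 116520 to 141540 over the non-treated, H2O2 and DPI arrays and 138810 to 148740 with DPI + DNFB. Of markers of other cell types, 2 of 5 keratinocyte, 1 of 5 fibroblast, 1 of 4 T cell, 1 of 2 B cell, 3 of 4 melanocyte and 1 of 3 endothelial genes on the array passed. Their summed signals were at most 1609 (melanocyte, DPI + DNFB). Of the T cell genes, Cd8a passed (99.1 to 438), while Cd3e, Cd3g and Cd4 did not. Single dendritic and myeloid markers ranged widely, with median signals of 72.1 for Flt3, 90.6 for Cd207 and 33570 for H2-Aa. Those of Cd8a and of the melanocyte gene Mitf were 277 and 742, above Flt3 and Cd207.

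With DNFB all called members were lower, and with H2O2 more of the called members were higher than lower; both splits changed under some other settings. Against non-treated cells, 9 of 45 members fell with DNFB and 0 rose at an adjusted p below 0.05 (limma, Benjamini-Hochberg over the 12701 genes), where 24.4% of all tested genes were called, 10.5% higher and 13.9% lower. At an unadjusted p below 0.05, 2 members rose and 13 fell. The median log2 fold change of the members was -0.18, against -0.055 over all genes, and 35 of 45 were below 0. The falls comprised 5 hnRNP genes, 2 SF3A/SF3B subunits, Snrpb and Srsf2. With H2O2, 7 members rose and 3 fell (background 28.3% called, 10.9% higher and 17.4% lower), with a median of 0.11 against -0.065. The risers were Srsf5, Srsf6, Srsf11, Hnrnpa1, Hnrnpc, Hnrnpdl and Snrpc, the fallers Hnrnpul1, Hnrnpul2 and Hnrnpr. Both comparisons share the non-treated arrays. Without DNFB replicate 1 the DNFB count was 5. Among the 9 arrays deposited at a scaling target of 500 the counts were 1 for DNFB and 9 for H2O2, and among the 6 at 250 they were 7 and 3. The latter split into 2 higher and 5 lower for DNFB, and into 1 higher and 2 lower for H2O2. For DNFB, 1 member was called higher under quantile normalization, with the beta-actin ratio as a covariate and when the 2 groups were fitted alone. For H2O2 the split was 6 and 6 under quantile normalization and 4 and 4 for the mean of each gene's probe sets.

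DPI changed more members, in both directions. With DPI alone 9 rose and 9 fell (31.8% of all genes called, 13.3% higher and 18.4% lower), and with DPI + DNFB 10 rose and 10 fell (33.8%, 15% higher and 18.7% lower). The member medians were 0.042 and 0.007, against -0.007 and 0.024 over all genes. The Sm core stood on the higher side in both (3 and 4 of 5 members called, and 0 lower, also at an unadjusted p below 0.05 by limma), and the called SR and hnRNP genes were lower more often than higher (1 higher and 2 lower, then 0 and 3, of 9 SR genes, where 1 more was higher at an unadjusted p below 0.05 by limma; 2 higher and 5 lower in each of the 2 comparisons, of 19 hnRNP genes). Other probe sets of these SR genes differed. With DPI, Srsf6 (lower) had 3 others called higher, and Srsf11 (higher) had 1 called lower. With DPI + DNFB, Srsf6 and Srsf3 (both lower) had 1 other each called higher, and Srsf3 had 4 called lower. Of the 5 others of Srsf1, 4 were called lower with DPI and 5 with DPI + DNFB. Over all 19 hnRNP genes, called or not, 9 were above and 10 below 0 with DPI, and 10 above and 9 below with DPI + DNFB. Within the arrays at a target of 500 the counts were 9 and 17, and within those at 250 they were 11 and 13. With the beta-actin ratio as a covariate, 8 members passed with DPI + DNFB. Centring each array on its median lowered the median log2 fold change of all genes with DPI + DNFB from 0.024 to -0.23; the split then was 5 higher and 18 lower. Under quantile normalization the splits were 5 and 13 for DPI, and 10 and 15 for DPI + DNFB. Under the values as deposited, with their unequal targets, 0 of the 125 calls of a member over all 8 comparisons remained; the arrays at a target of 500 alone kept 60, and those at 250, where a group with 1 array is assumed to vary like the others, 55.

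Of the 8 comparisons, DPI + DNFB against DNFB had the most calls, among members and among all genes. Comparisons that hold the DNFB group, the interaction included, use the same 3 DNFB arrays, so their results are not independent. DPI + DNFB differed from DNFB alone in 24 members, 18 higher and 6 lower (44.2% of all genes called, 22.9% higher and 21.3% lower), with a median of 0.22 against 0.10 over all genes. DPI + DNFB differed from DPI alone in 10, 6 higher and 4 lower (27.8%, 14.1% and 13.7%). DNFB differed from H2O2 in 19 members, 16 of them lower with DNFB, where 14.7% of all genes were called, 8.75% higher and 6% lower. There the member median was -0.27 against 0.011, 40 of 45 members were lower with DNFB, and 24 had no overlap between the 3 DNFB and the 3 H2O2 arrays, all DNFB arrays being the lower ones (15.4% of all genes). The DNFB against H2O2 count was 10 without H2O2 replicate 3, 11 without H2O2 replicate 2 or without DNFB replicate 2, 10 after median centring, and 3 and 5 within the arrays of 1 scaling target. For DPI + DNFB the within-target counts were 14 and 17 against DNFB, and 7 and 3 against DPI; the covariate left 13 and 1, and median centring turned the splits to 8 higher and 16 lower and to 1 and 11.

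**Figure D1:**
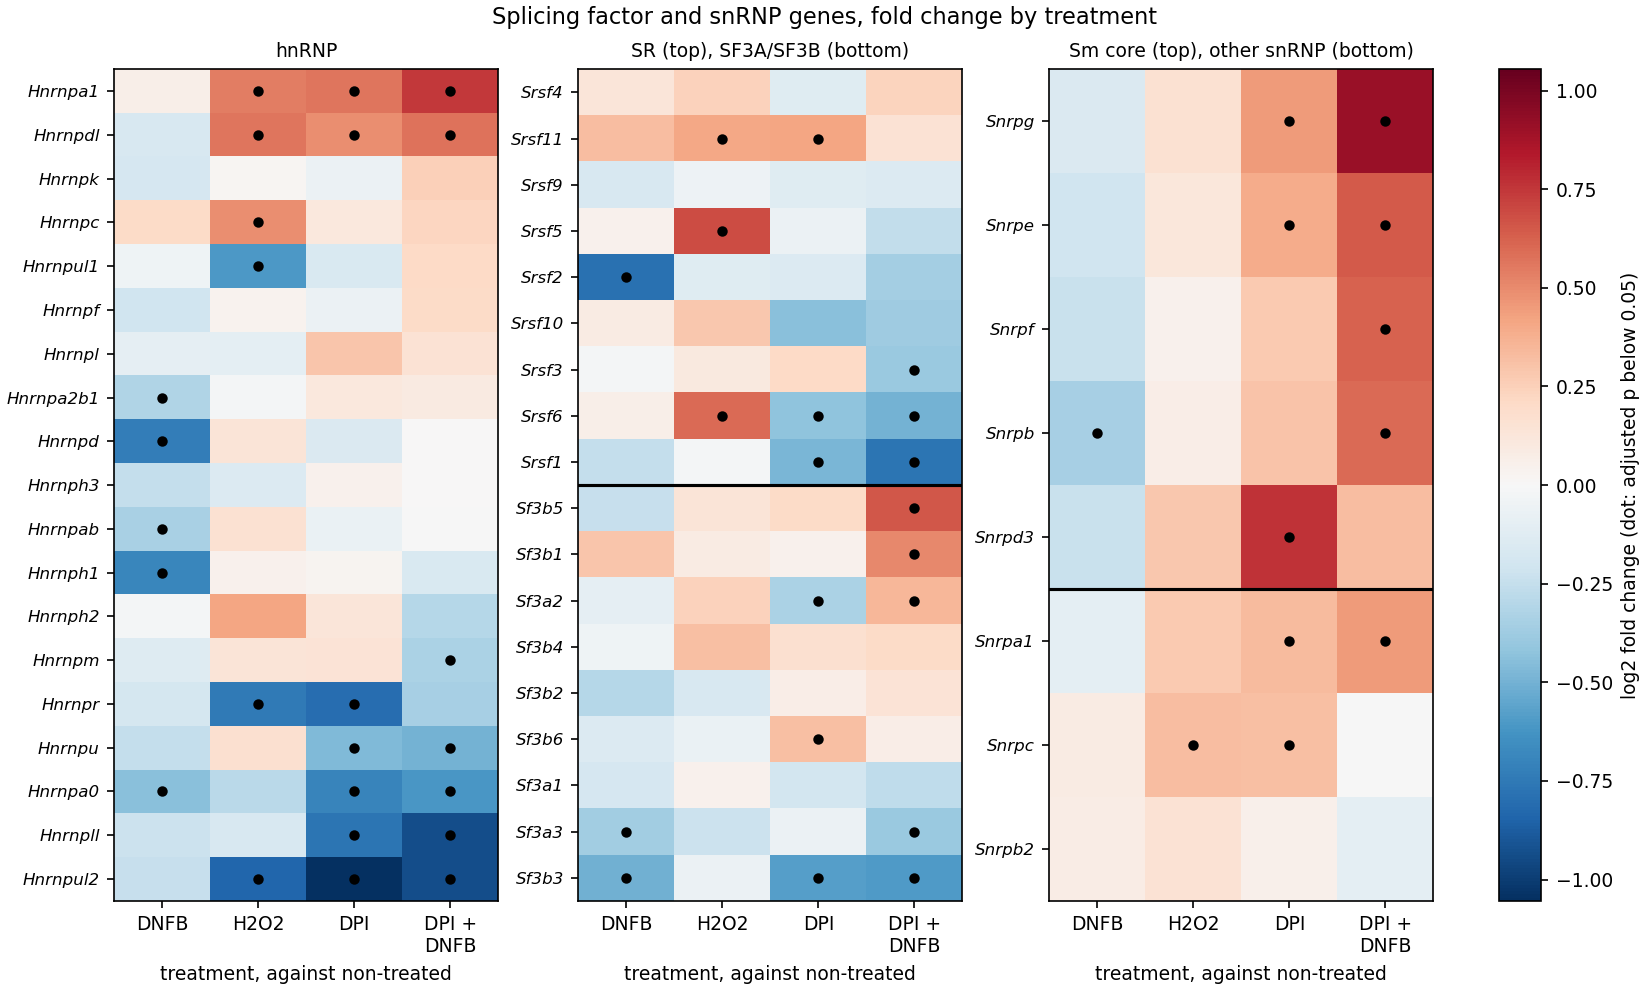
Heat map of the log2 fold change against non-treated cells (colour) of the 45 tested genes (rows, by role) for the 4 treatments (columns), with a dot where the adjusted p was below 0.05. The DNFB column holds 9 dots, all on lower genes, and the Sm core rows are higher in the DPI and DPI + DNFB columns.

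The Sm core genes encode the ring that binds the snRNA of every major snRNP except U6, and they were higher in cells given DPI with DNFB than in cells given DNFB. All 5 tested members were higher with DPI + DNFB than with DNFB, with log2 fold changes from 0.56 to 1.06. All 5 lay below 0 with DNFB alone (median -0.23; 1 called, Snrpb) and above 0 with H2O2 (median 0.12; 0 called, and 0 at an unadjusted p below 0.05). With DPI alone the median was 0.39, with 3 called, and with DPI + DNFB it was 0.62, with 4 called. Of all genes, 24.4% were called with DNFB, 28.3% with H2O2, 31.8% with DPI and 33.8% with DPI + DNFB. In DPI + DNFB against DNFB all 5 were called, where 44.2% of all genes were called, 22.9% higher. Median centring ended the calls over non-treated cells of Snrpb and Snrpf, and the call over DNFB of Snrpd3.

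Snrpg (probe set 1448358_s_at) encodes one of the small ring members. Its signals were 17735, 14362 and 16715 on the non-treated arrays, 14157, 14642 and 15030 with DNFB, 17929, 17173 and 19331 with H2O2, 25035, 19401 and 22231 with DPI and 29643, 28262 and 33922 with DPI + DNFB. The DPI and the DPI + DNFB arrays were all above the 3 non-treated arrays, and the DPI + DNFB arrays were above those of every other group. Snrpg had a 1.88-fold higher level in DPI + DNFB against non-treated by limma (log2 0.91 ± 0.11 SE, adjusted p = 5.94e-06). Against DNFB the difference was 1.06 ± 0.11 (log2, adjusted p = 3.76e-07), and against DPI it was 0.47 ± 0.11 (log2, adjusted p = 0.00475). Its rise with DPI alone was 0.45 ± 0.11 (log2, adjusted p = 0.00501). The call against DPI ended under quantile normalization (0.23), median centring (0.21) and the covariate (0.24), and quantile normalization lowered the rise over DNFB to 0.66 and over non-treated cells to 0.53.

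Snrpe (1451294_s_at), which sits beside SmF and SmG in the ring, had the same order of groups. Arrays read 16419, 17407 and 19340 on the non-treated arrays, 14606, 14939 and 16337 with DNFB, 18264, 18815 and 20693 with H2O2, 24894, 21773 and 23076 with DPI and 27150, 28034 and 27706 with DPI + DNFB. The DPI + DNFB arrays lay between 27150 and 28034, above all others, and the DNFB arrays lay below the non-treated ones. This was a 1.56-fold higher level in DPI + DNFB against non-treated by limma (log2 0.64 ± 0.099 SE, adjusted p = 5.42e-05). With DPI alone the gain was 0.39 ± 0.099 (log2, adjusted p = 0.00476), which quantile normalization took below the threshold (0.22). Over DNFB, DPI + DNFB was higher by 0.85 ± 0.099 (log2, adjusted p = 1.01e-06). Quantile normalization gave 0.25 and 0.46 for the 2 DPI + DNFB comparisons, and median centring 0.39 for the first, all still called.

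Snrpb (1437193_s_at) encodes the ring protein SmB. Snrpb read 5655, 6348 and 6121 on the non-treated arrays, 4276, 4750 and 5253 with DNFB, 5853, 6756 and 6462 with H2O2, 6712, 7655 and 7975 with DPI and 7841, 9467 and 10306 with DPI + DNFB. Its DNFB arrays were all below, and its DPI and DPI + DNFB arrays all above, the non-treated arrays. In DPI + DNFB against DNFB, Snrpb was 1.93-fold higher (log2 fold change 0.95 ± 0.12 SE, adjusted p = 1.84e-06, limma). Against non-treated cells, DPI + DNFB was higher by 0.60 ± 0.12 (log2, adjusted p = 0.000485), a call that ended under median centring (0.35) and with the covariate (0.63, with a wider error). Its fall with DNFB, -0.35 ± 0.12 (log2, adjusted p = 0.033), ended when non-treated replicate 2 or 3 or DNFB replicate 1 or 2 was left out (-0.27 to -0.35).

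Snrpf (1428672_at) had more spread. The signal of Snrpf was 4144, 5797 and 6478 on the non-treated arrays, 4052, 4270 and 5488 with DNFB, 5210, 5427 and 6065 with H2O2, 5718, 7651 and 6288 with DPI and 6529, 9742 and 8922 with DPI + DNFB. DPI + DNFB arrays were above the DNFB and non-treated arrays, while the DPI arrays overlapped the non-treated ones. Snrpf had a 1.81-fold higher level in DPI + DNFB against DNFB by limma (log2 0.86 ± 0.17 SE, adjusted p = 0.000334). The rise over non-treated cells, 0.62 ± 0.17 (log2, adjusted p = 0.00736), ended without non-treated replicate 1 (0.43) and under median centring (0.37).

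Snrpd3 (1422884_at) encodes SmD3 and was highest with DPI alone. Its signals were 6965, 5175 and 6411 on the non-treated arrays, 5839, 4808 and 5052 with DNFB, 8502, 7062 and 6917 with H2O2, 11652, 9076 and 10662 with DPI and 9126, 9131 and 5443 with DPI + DNFB. The DPI arrays were above the non-treated ones with no overlap, whereas DPI + DNFB replicate 3 lay within the non-treated range. This was a 1.69-fold higher level in DPI against non-treated by limma (log2 0.76 ± 0.17 SE, adjusted p = 0.00164). The mean of its 3 kept probe sets gave 0.45 for that rise. Over DNFB it was higher with DPI + DNFB by 0.56 ± 0.17 (log2, adjusted p = 0.0106), with overlapping arrays. That call ended without DPI + DNFB replicate 1 or 2 (0.43 in both cases), under median centring (0.28) and for the mean of the probe sets (0.059), and probe set 1422885_at of the gene was called the other way (-0.92, adjusted p = 0.0166 by limma over all kept probe sets).

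**Figure D2:**
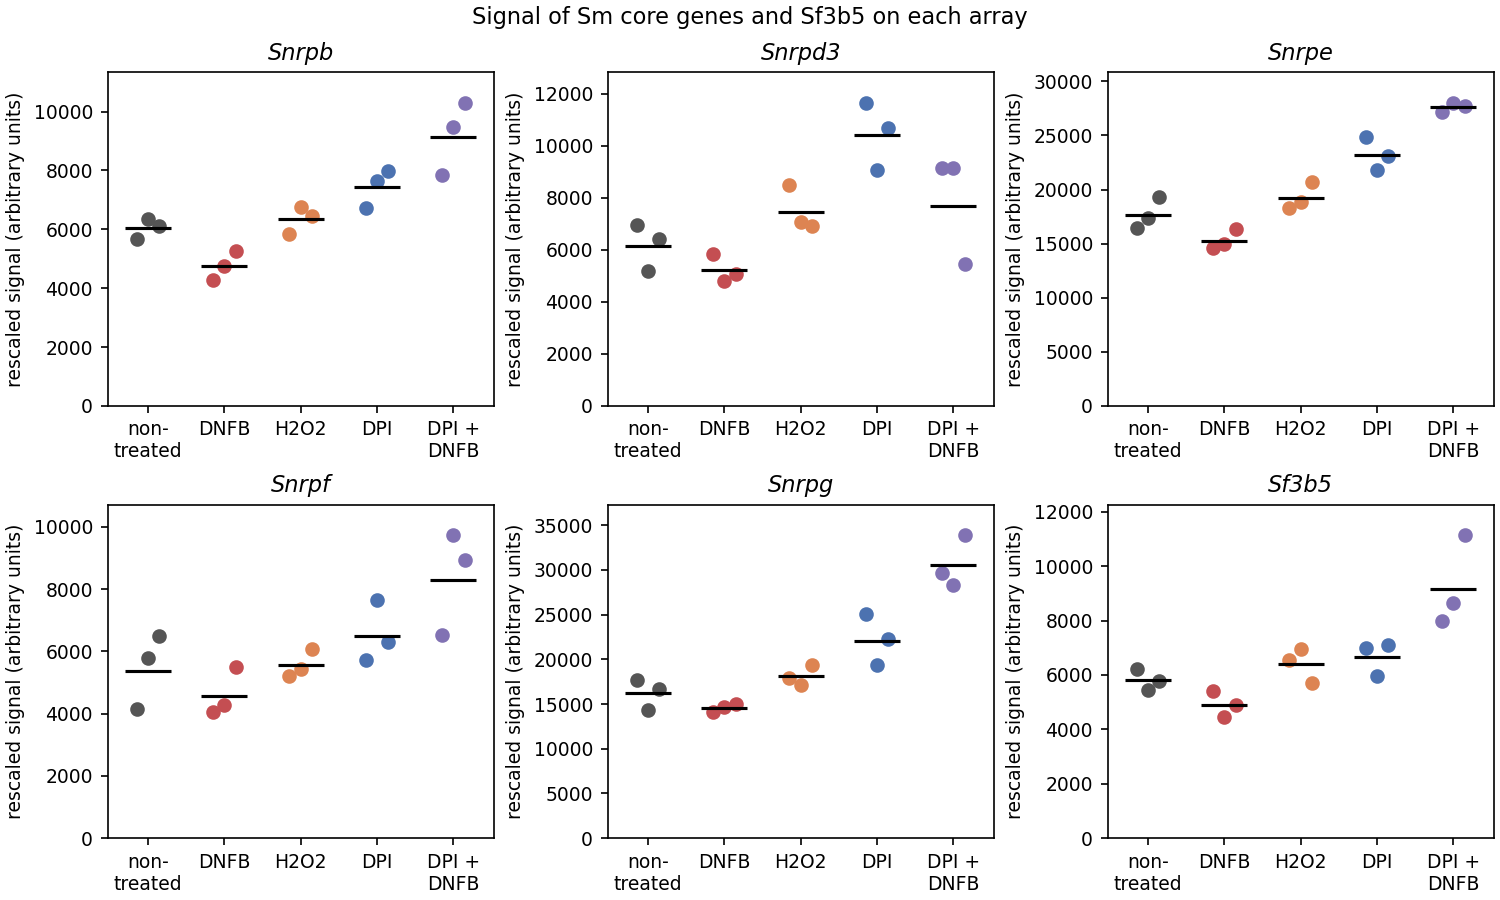
Rescaled signal (arbitrary units, linear axis from 0) of 5 Sm core genes and Sf3b5 on each of 3 arrays per group (points), with the geometric mean (bar). The DPI + DNFB points of Snrpg lie between 28262 and 33922, above all points of the other groups.

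The other snRNP proteins were Snrpa1 and Snrpb2 of the U2 snRNP and Snrpc of the U1 snRNP. Snrpa1 had 0.34 ± 0.11 (log2, adjusted p = 0.0198) with DPI and 0.45 ± 0.11 (log2, adjusted p = 0.00248) with DPI + DNFB by limma. The first ended without non-treated replicate 1 or 2 or DPI replicate 3 (0.30 to 0.31) and under quantile normalization (0.19), the second under median centring (0.20), with the covariate (0.38) and for the mean of its probe sets (0.22). Snrpb2 was called in 0 of the 8 comparisons by limma, and in 0 at an unadjusted p below 0.05. Snrpc (1416197_at), which stabilises U1 at the 5' splice site, fell when DNFB was added to DPI. Arrays read 3022, 2808 and 2865 on the non-treated arrays, 3148, 2975 and 3124 with DNFB, 3421, 3996 and 3495 with H2O2, 3759, 3584 and 3483 with DPI and 2647, 3141 and 2873 with DPI + DNFB. Its H2O2 and DPI arrays were all above the non-treated arrays, and the DPI + DNFB arrays were all below the DPI arrays. In DPI + DNFB against DPI, Snrpc was 1.25-fold lower (log2 fold change -0.32 ± 0.099 SE, adjusted p = 0.0192, limma). Without DPI replicate 1 (-0.29) or DPI + DNFB replicate 1 (-0.26), under quantile normalization (-0.24), with the covariate (-0.18), and when the 2 groups were fitted alone (-0.32), that fall was not called. Its rises with H2O2 and DPI, 0.32 ± 0.099 (log2, adjusted p = 0.0182) and 0.32 ± 0.099 (log2, adjusted p = 0.0193) by limma, ended without non-treated replicate 2 or 3, the first also without H2O2 replicate 2 and the second without DPI replicate 1 (0.25 to 0.32 and 0.29 to 0.31).

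SF3A and SF3B together form the part of the U2 snRNP that holds the branch point. Of their 9 genes, 2 fell with DNFB, 0 were called with H2O2 by limma (2 rose at an unadjusted p below 0.05), 1 rose and 2 fell with DPI, and 3 rose and 2 fell with DPI + DNFB. The shares called were 22.2%, 0%, 33.3% and 55.6%, against 24.4%, 28.3%, 31.8% and 33.8% of all genes. The subunits did not move as 1 group: Sf3b3 and Sf3a3 were on the lower side while Sf3b5, Sf3b1 and Sf3a2 were on the higher side with DPI + DNFB.

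Sf3b3 (1415985_at) encodes a large scaffold of SF3B. Sf3b3 read 2257, 2050 and 2018 on the non-treated arrays, 1506, 1617 and 1331 with DNFB, 1963, 2027 and 2075 with H2O2, 1601, 1190 and 1444 with DPI and 1424, 1371 and 1359 with DPI + DNFB. Every DNFB, DPI and DPI + DNFB array was below the non-treated and H2O2 arrays. Sf3b3 had a 1.42-fold lower level in DNFB against non-treated by limma (log2 -0.51 ± 0.12 SE, adjusted p = 0.00327). The fall was -0.58 ± 0.12 (log2, adjusted p = 0.000787) with DPI and -0.60 ± 0.12 (log2, adjusted p = 0.000593) with DPI + DNFB. The mean of the gene's probe sets took the DPI fall to -0.30, below the threshold.

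Sf3b5 (1437972_s_at) encodes a small SF3B subunit that packs against Sf3b3 and Sf3b1. The signal of Sf3b5 was 6212, 5450 and 5775 on the non-treated arrays, 5398, 4465 and 4907 with DNFB, 6559, 6964 and 5708 with H2O2, 6982, 5952 and 7114 with DPI and 7968, 8662 and 11153 with DPI + DNFB. DPI + DNFB arrays were above every other array, most of all replicate 3, and the DNFB arrays were all below the non-treated ones. This was a 1.86-fold higher level in DPI + DNFB against DNFB by limma (log2 0.90 ± 0.13 SE, adjusted p = 8.66e-06). Against non-treated cells the rise was 0.66 ± 0.13 (log2, adjusted p = 0.000436) and against DPI 0.46 ± 0.13 (log2, adjusted p = 0.00974). The last ended without DPI replicate 2 (0.38) or DPI + DNFB replicate 3 (0.32), under median centring (0.21) and with the covariate (0.35). The covariate also ended the rise over non-treated cells (0.54), which median centring took to 0.41.

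Sf3a2 (1455546_s_at) encodes an SF3A subunit. Its signals were 3639, 3418 and 3418 on the non-treated arrays, 3503, 2979 and 3370 with DNFB, 4481, 3912 and 4003 with H2O2, 2773, 3109 and 2446 with DPI and 4696, 4102 and 4569 with DPI + DNFB. DPI arrays were all below, and DPI + DNFB arrays all above, the non-treated arrays. In DPI + DNFB against DPI, Sf3a2 was 1.61-fold higher (log2 fold change 0.68 ± 0.11 SE, adjusted p = 0.00014, limma). Median centring gave 0.43 and the mean of the probe sets 0.45 for it, both called. The fall with DPI alone was -0.34 ± 0.11 (log2, adjusted p = 0.0225), which ended without non-treated replicate 1, DPI replicate 1 or DPI replicate 3 (-0.25 to -0.34).

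Sf3b1 (1440818_s_at) encodes the subunit that contacts the branch region, the target of splicing inhibitor drugs. Arrays read 7694, 9181 and 11037 on the non-treated arrays, 11183, 11884 and 10779 with DNFB, 9930, 8308 and 11406 with H2O2, 8555, 10239 and 9719 with DPI and 13842, 11932 and 13512 with DPI + DNFB. The DPI + DNFB arrays were above all others, and those of the other treatments overlapped the non-treated arrays. Sf3b1 had a 1.38-fold higher level in DPI + DNFB against DPI by limma (log2 0.46 ± 0.13 SE, adjusted p = 0.0127). Against non-treated cells the rise was 0.51 ± 0.13 (log2, adjusted p = 0.00556). The call against DPI ended without DPI replicate 1 (0.39), under median centring (0.21) and with the covariate (0.27); that against non-treated cells ended under quantile normalization (0.27), median centring (0.25), the covariate (0.30) and the mean of its probe sets (0.16). In that comparison 2 of its 3 other kept probe sets were called higher too, and 1418561_at was called lower (-0.64, adjusted p = 0.0137 by limma over all kept probe sets).

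Of the other subunits, Sf3a3 had -0.37 ± 0.13 (log2, adjusted p = 0.044) with DNFB and -0.39 ± 0.13 (log2, adjusted p = 0.0235) with DPI + DNFB by limma. Its DNFB call ended when any 1 of 7 arrays was left out (non-treated replicates 1, 2 and 3, DNFB replicates 1 and 3, H2O2 replicate 2 and DPI replicate 1; -0.33 to -0.39), and its DPI + DNFB call without non-treated replicate 1 or 3 or DPI + DNFB replicate 1 (-0.29 to -0.38) and under quantile normalization (-0.30). For Sf3a3 with DPI + DNFB, median centring gave -0.64 and the mean of its probe sets -0.94, both called. Sf3b6, the subunit that touches the branch adenosine, had 0.32 ± 0.10 (log2, adjusted p = 0.0223) with DPI, which ended without non-treated replicate 1 or DPI replicate 2 or 3 (0.24 to 0.30) and under quantile normalization (0.14). Sf3b2 was higher with DPI + DNFB than with DNFB by 0.45 ± 0.13 (log2, adjusted p = 0.00818), a call that median centring (0.17) and the covariate (0.24) ended. Sf3a1 and Sf3b4 were called in 0 of the 8 comparisons by limma, and in 1 and 2 at an unadjusted p below 0.05.

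Of the 9 tested SR genes, 1 fell with DNFB, 3 rose with H2O2, and 4 were lower and 1 was higher with DPI + DNFB than with DNFB. The shares called were 11.1%, 33.3% and 55.6%, against 24.4%, 28.3% and 44.2% of all genes. Srsf2 (1427504_s_at) encodes SC35, the marker protein of nuclear speckles. Srsf2 read 7715, 6066 and 5772 on the non-treated arrays, 3838, 4496 and 3018 with DNFB, 4816, 6276 and 6877 with H2O2, 5716, 6385 and 5467 with DPI and 4458, 6246 and 4631 with DPI + DNFB. The DNFB arrays were all below the non-treated, H2O2 and DPI arrays, whereas DPI + DNFB replicate 1 lay below DNFB replicate 2. This was a 1.73-fold lower level in DNFB against non-treated by limma (log2 -0.79 ± 0.16 SE, adjusted p = 0.00108). Against H2O2, DNFB was lower by -0.66 ± 0.16 (log2, adjusted p = 0.00884), a call that ended without DNFB replicate 3 (-0.51) or H2O2 replicate 3 (-0.56). The other 3 probe sets of Srsf2 were not called with DNFB (-0.22 to -0.35), and the mean over the gene's probe sets was -0.40, still called.

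Srsf5 (1423130_a_at), an SR protein long known as an early-response transcript, rose with H2O2. The signal of Srsf5 was 7365, 5987 and 5862 on the non-treated arrays, 7616, 6076 and 6165 with DNFB, 9994, 12417 and 8708 with H2O2, 6514, 5904 and 5959 with DPI and 5559, 6309 and 4268 with DPI + DNFB. All 3 H2O2 arrays were above every array of the other 4 groups, and replicate 2 was the highest. In H2O2 against non-treated, Srsf5 was 1.61-fold higher (log2 fold change 0.69 ± 0.15 SE, adjusted p = 0.00142, limma). With DNFB the log2 fold change was 0.05 and did not pass, and DNFB was lower than H2O2 by -0.64 ± 0.15 (log2, adjusted p = 0.00594).

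Srsf6 (1448454_at), a regulator of exon inclusion, rose with H2O2 and fell with DPI. Its signals were 7067, 6365 and 6083 on the non-treated arrays, 6848, 6892 and 6598 with DNFB, 8372, 10935 and 10363 with H2O2, 4568, 4922 and 5008 with DPI and 4410, 5357 and 4126 with DPI + DNFB. H2O2 arrays were above all others, and DPI and DPI + DNFB arrays were all below the non-treated, DNFB and H2O2 arrays. Srsf6 had a 1.51-fold higher level in H2O2 against non-treated by limma (log2 0.60 ± 0.12 SE, adjusted p = 0.000565). With DPI it fell by -0.43 ± 0.12 (log2, adjusted p = 0.00775), and DPI + DNFB lay below DNFB by -0.56 ± 0.12 (log2, adjusted p = 0.000559). Its other 3 probe sets differed from it: averaging the 4 gave 0.19 with H2O2, not called, and 0.28 with DPI, a turn of sign. Averaging also brought DPI + DNFB against DNFB to -0.21, still called, while the covariate ended that call (-0.38).

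Srsf1 (1428099_a_at), the founding SR protein (SF2/ASF), fell most with DPI and DNFB together. Arrays read 17713, 16211 and 15893 on the non-treated arrays, 13942, 13139 and 14672 with DNFB, 13607, 17873 and 17837 with H2O2, 11713, 10240 and 13936 with DPI and 9617, 9604 and 9866 with DPI + DNFB. The DPI + DNFB arrays lay within 9604 to 9866, below all others. This was a 1.71-fold lower level in DPI + DNFB against non-treated by limma (log2 -0.77 ± 0.12 SE, adjusted p = 6.18e-05). All 5 other probe sets were called lower as well. The fall with DPI alone was -0.48 ± 0.12 (log2, adjusted p = 0.00444), and DPI + DNFB lay below DNFB by -0.52 ± 0.12 (log2, adjusted p = 0.00154), or by -0.79 after median centring.

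Srsf3 (1416150_a_at), the smallest SR protein, fell when DNFB was added to DPI. Srsf3 read 9619, 14019 and 14372 on the non-treated arrays, 13072, 13088 and 10823 with DNFB, 12601, 13423 and 14316 with H2O2, 14378, 14037 and 14734 with DPI and 9008, 10208 and 9357 with DPI + DNFB. Non-treated replicate 1 was below the other non-treated arrays, and the DPI + DNFB arrays were all below the DPI arrays. In DPI + DNFB against DPI, Srsf3 was 1.51-fold lower (log2 fold change -0.60 ± 0.13 SE, adjusted p = 0.00205, limma). The call ended with the covariate (-0.62, with a wider error) and for the mean of the gene's 6 probe sets (-0.11), which differed among themselves. Of the remaining SR genes, Srsf11 had 0.41 ± 0.14 (log2, adjusted p = 0.0347) with H2O2 and 0.42 ± 0.14 (log2, adjusted p = 0.0271) with DPI, Srsf10 was lower with DPI + DNFB than with DNFB by -0.46 ± 0.17 (log2, adjusted p = 0.0373), Srsf4 was higher with DPI + DNFB than with DPI by 0.36 ± 0.11 (log2, adjusted p = 0.0153), and Srsf9 was called in 0 comparisons by limma and in 0 at an unadjusted p below 0.05. The H2O2 call of Srsf11 ended without non-treated replicate 1, 2 or 3 or H2O2 replicate 3 (0.32 to 0.43), and its DPI call without non-treated replicate 1 or 2 or DPI replicate 2 or 3 (0.37 to 0.43); the mean of its 4 probe sets turned the DPI value to -0.29, and 1430077_at among them was called lower with DPI (-0.78). That of Srsf10 ended without any 1 DNFB array or without DPI + DNFB replicate 1 or 3 (-0.27 to -0.51). The call of Srsf4 ended without DPI replicate 1 (0.32) or DPI + DNFB replicate 1 (0.28) and under median centring (0.11).

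The 19 hnRNP genes gave 5 falls and 0 rises with DNFB by limma (6 and 0 at an unadjusted p below 0.05), 3 rises and 3 falls with H2O2, and 8 higher and 2 lower with DPI + DNFB against DNFB. The shares called were 26.3%, 31.6% and 52.6%, against 24.4%, 28.3% and 44.2% of all genes. Hnrnpd (1425142_a_at) encodes AUF1, which binds AU-rich elements and steers mRNA decay, including that of cytokine transcripts. The signal of Hnrnpd was 9537, 9104 and 10022 on the non-treated arrays, 5495, 5609 and 6235 with DNFB, 10552, 9447 and 11644 with H2O2, 8145, 8868 and 8830 with DPI and 9543, 9273 and 9975 with DPI + DNFB. The 3 DNFB arrays lay between 5495 and 6235 and the other 12 between 8145 and 11644. Hnrnpd had a 1.65-fold lower level in DNFB against non-treated by limma (log2 -0.73 ± 0.098 SE, adjusted p = 1.42e-05). DNFB was below H2O2 by -0.86 ± 0.098 (log2, adjusted p = 8.09e-06), and DPI + DNFB was above DNFB by 0.73 ± 0.098 (log2, adjusted p = 5.55e-06), back within the non-treated range; median centring made that 0.46, still called. The fall with DNFB kept its call under every setting tried but the values as deposited, and the other kept probe set, 1457568_at, was called in the same direction. That probe set was also called lower with H2O2 (-0.76, adjusted p = 0.0499 by limma over all kept probe sets), where the representative was not called. It was not called in DNFB against H2O2 or in DPI + DNFB against DNFB. Averaging both probe sets gave -0.55 for DNFB against H2O2, still called.

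Hnrnph1 (1415872_at) binds G-rich runs. Its signals were 9243, 9843 and 9376 on the non-treated arrays, 5795, 6700 and 5272 with DNFB, 8505, 10224 and 10736 with H2O2, 9119, 9726 and 10260 with DPI and 7934, 9711 and 7930 with DPI + DNFB. The DNFB arrays were below every other array. This was a 1.61-fold lower level in DNFB against non-treated by limma (log2 -0.69 ± 0.12 SE, adjusted p = 0.000161). Against H2O2, DNFB was lower by -0.73 ± 0.12 (log2, adjusted p = 0.000275), and DPI + DNFB was higher than DNFB by 0.53 ± 0.12 (log2, adjusted p = 0.000977). Averaging its 2 probe sets took the first to -0.48 and the second to -0.49, neither of them called, and median centring ended the call against DNFB (0.25).

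Hnrnpdl (1424251_a_at), a paralog of Hnrnpd, rose with H2O2, DPI and DPI + DNFB but not with DNFB. Arrays read 11308, 10028 and 11143 on the non-treated arrays, 9379, 9545 and 9858 with DNFB, 15310, 15864 and 16959 with H2O2, 16699, 13611 and 15405 with DPI and 14919, 15491 and 17861 with DPI + DNFB. The 9 arrays of those 3 groups lay between 13611 and 17861, above the 6 non-treated and DNFB arrays. In H2O2 against non-treated, Hnrnpdl was 1.48-fold higher (log2 fold change 0.57 ± 0.10 SE, adjusted p = 0.000303, limma). The rise was 0.49 ± 0.10 (log2, adjusted p = 0.00109) with DPI, and DNFB was below H2O2 by -0.74 ± 0.10 (log2, adjusted p = 7.24e-05). Averaging its 7 probe sets gave 0.32 for DPI, still called. Among them, 1428225_s_at was called higher with DNFB (0.69, adjusted p = 0.0458 by limma over all kept probe sets), unlike the representative. The geometric mean of 1428225_s_at was 497 with DPI and 558 in non-treated cells.

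**Figure D3:**
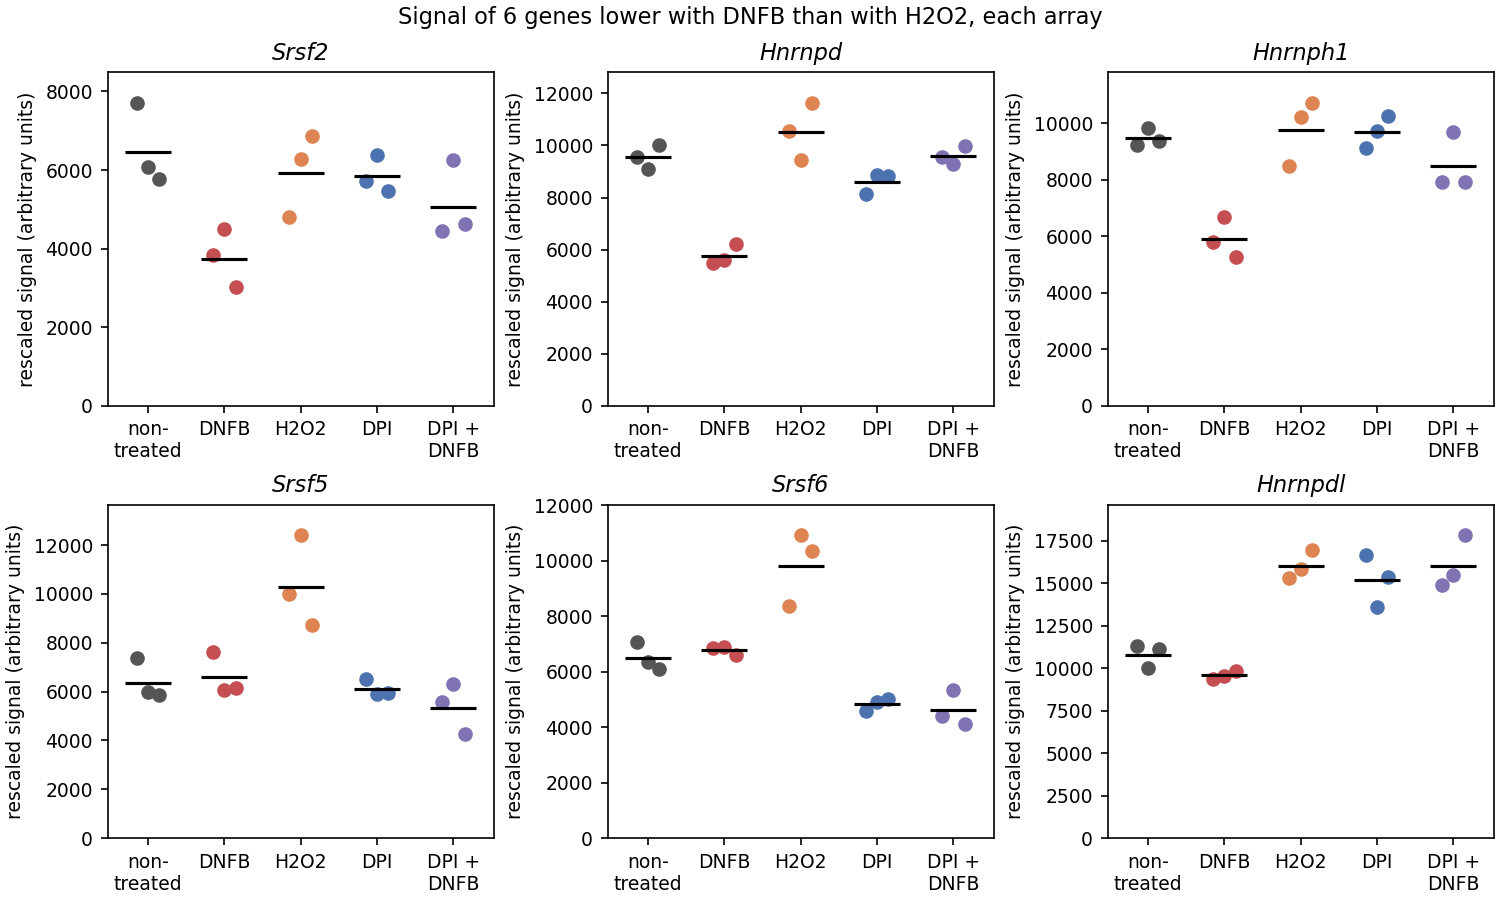
Rescaled signal (arbitrary units, linear axis from 0) of 6 genes on each of 3 arrays per group (points) with the geometric mean (bar). In the top panels the DNFB points are the low ones, for Hnrnpd at 5495 to 6235; in the bottom left and middle panels the H2O2 points are the high ones, for Srsf5 at 8708 to 12417.

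Hnrnpa1 (1455305_x_at), a repressor of exon use whose many processed pseudogenes may be read by the same probes, showed the same grouping as Hnrnpdl. Hnrnpa1 read 7575, 8344 and 7486 on the non-treated arrays, 7591, 8048 and 8762 with DNFB, 10298, 12489 and 11326 with H2O2, 12031, 10942 and 11676 with DPI and 11560, 12923 and 14959 with DPI + DNFB. H2O2, DPI and DPI + DNFB arrays all lay above the non-treated and DNFB arrays. Hnrnpa1 had a 1.68-fold higher level in DPI + DNFB against non-treated by limma (log2 0.75 ± 0.11 SE, adjusted p = 3.21e-05). The rise was 0.54 ± 0.11 (log2, adjusted p = 0.000846) with H2O2 and 0.57 ± 0.11 (log2, adjusted p = 0.000498) with DPI. Averaged over its 3 probe sets those 2 became 0.38 and 0.21, not called, and the DPI + DNFB rise 0.47, called; median centring gave 0.49 for the last.

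Hnrnpul2 (1434551_at), an hnRNP U relative also known from DNA end resection, fell in every treatment that is not DNFB alone. The signal of Hnrnpul2 was 3954, 4042 and 4097 on the non-treated arrays, 3637, 3445 and 3140 with DNFB, 2449, 2149 and 2171 with H2O2, 1984, 1940 and 1877 with DPI and 2205, 2430 and 1721 with DPI + DNFB. The 9 arrays of H2O2, DPI and DPI + DNFB lay between 1721 and 2449, below the 3 DNFB arrays, which were themselves below the 3 non-treated ones. This was a 2.08-fold lower level in DPI against non-treated by limma (log2 -1.05 ± 0.12 SE, adjusted p = 1.15e-06). It fell by -0.84 ± 0.12 (log2, adjusted p = 1.96e-05) with H2O2 and by -0.94 ± 0.12 (log2, adjusted p = 5.86e-06) with DPI + DNFB, while DNFB alone gave -0.24, not called. DNFB was thus above H2O2 by 0.59 ± 0.12 (log2, adjusted p = 0.0018), and DPI + DNFB below DNFB by -0.69 ± 0.12 (log2, adjusted p = 7.04e-05), which the covariate ended (-0.46). With its 2 probe sets averaged, the H2O2 and DPI + DNFB falls were -0.51 and -0.60, both called. Its other kept probe set, 1415765_at, was called lower with DPI by limma over all kept probe sets. It was not called with H2O2, with DPI + DNFB, in DNFB against H2O2 or in DPI + DNFB against DNFB.

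Hnrnpr (1437526_x_at), a relative of Syncrip that binds mRNA in nucleus and cytoplasm, fell with H2O2 and DPI. Its signals were 6986, 8388 and 9652 on the non-treated arrays, 7273, 6751 and 7842 with DNFB, 5896, 4101 and 4984 with H2O2, 4609, 5415 and 4241 with DPI and 6652, 6684 and 6090 with DPI + DNFB. The H2O2 and DPI arrays lay between 4101 and 5896, below all arrays of the other 3 groups. In DPI against non-treated, Hnrnpr was 1.75-fold lower (log2 fold change -0.80 ± 0.14 SE, adjusted p = 0.000136, limma). With H2O2 it fell by -0.74 ± 0.14 (log2, adjusted p = 0.000327), and DNFB was above H2O2 by 0.56 ± 0.14 (log2, adjusted p = 0.00853), which ended without H2O2 replicate 2 (0.42) and for the mean of its 4 probe sets (0.29). That mean was -0.42 for the H2O2 fall, called. With DPI + DNFB the representative was not called (-0.35), whereas 1427129_a_at and 1452030_a_at of the gene were called lower (-1.10 and -1.09). Both were also called lower with DPI + DNFB than with DNFB (-0.79 and -0.87), by limma over all kept probe sets.

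Hnrnpul1 (1451984_at), a further hnRNP U relative, fell with H2O2. Arrays read 5114, 4112 and 4063 on the non-treated arrays, 4305, 5443 and 3299 with DNFB, 3256, 2828 and 2622 with H2O2, 4168, 4094 and 3586 with DPI and 4444, 4632 and 6374 with DPI + DNFB. The H2O2 arrays were below all others, DNFB replicate 3 coming next. Hnrnpul1 had a 1.52-fold lower level in H2O2 against non-treated by limma (log2 -0.61 ± 0.16 SE, adjusted p = 0.00781). DNFB was above H2O2 by 0.56 ± 0.16 (log2, adjusted p = 0.0252), a call that ended without DNFB replicate 1 or 2 or without H2O2 replicate 2 or 3 (0.38 to 0.55).

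Hnrnpll (1425255_s_at), which in lymphocytes sets the exon use of the phosphatase CD45, fell with DPI, given alone or with DNFB. Hnrnpll read 10926, 9760 and 9800 on the non-treated arrays, 8885, 9186 and 8023 with DNFB, 8382, 9273 and 9421 with H2O2, 6387, 5207 and 6324 with DPI and 5195, 6017 and 4808 with DPI + DNFB. The 6 arrays with DPI lay between 4808 and 6387, below the 9 without it. This was a 1.91-fold lower level in DPI + DNFB against non-treated by limma (log2 -0.93 ± 0.11 SE, adjusted p = 3.32e-06). The fall was -0.77 ± 0.11 (log2, adjusted p = 2.38e-05) with DPI alone, and DPI + DNFB was below DNFB by -0.71 ± 0.11 (log2, adjusted p = 3.16e-05). Its other kept probe set, 1427144_at, was called the same way in all 3 comparisons. That probe set was also called lower with DNFB (-0.50) and with H2O2 (-0.50) by limma over all kept probe sets. The representative was called in neither.

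Hnrnpa0 (1428407_at), a binder of AU-rich RNA and a target of stress kinase signalling, fell with DPI. The signal of Hnrnpa0 was 4542, 4347 and 4031 on the non-treated arrays, 3089, 3097 and 3291 with DNFB, 3986, 3534 and 3115 with H2O2, 2950, 2356 and 2695 with DPI and 2906, 2962 and 2584 with DPI + DNFB. DNFB, DPI and DPI + DNFB arrays were all below the non-treated arrays, and the H2O2 arrays too. In DPI against non-treated, Hnrnpa0 was 1.62-fold lower (log2 fold change -0.69 ± 0.11 SE, adjusted p = 8.9e-05, limma). With DPI + DNFB the fall was -0.61 ± 0.11 (log2, adjusted p = 0.000309), ended by the covariate (-0.47), and with DNFB it was -0.44 ± 0.11 (log2, adjusted p = 0.00575).

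Hnrnpm (1426698_a_at), which binds GU-rich intronic RNA, fell when DNFB was added to DPI. Its signals were 3791, 4199 and 4288 on the non-treated arrays, 3419, 3937 and 3852 with DNFB, 4251, 4560 and 4657 with H2O2, 4463, 4698 and 4433 with DPI and 3367, 3639 and 2790 with DPI + DNFB. The DPI + DNFB arrays were below all DPI and non-treated arrays. Hnrnpm had a 1.39-fold lower level in DPI + DNFB against DPI by limma (log2 -0.48 ± 0.11 SE, adjusted p = 0.00244). The covariate ended the call (-0.29), and median centring gave -0.73. 

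Fewer values are given for the other hnRNP genes. Hnrnpab had -0.34 ± 0.12 (log2, adjusted p = 0.0406) and Hnrnpa2b1, which sorts RNA into vesicles, -0.31 ± 0.11 (log2, adjusted p = 0.0406) with DNFB by limma. The first call ended without non-treated replicate 1 or 3 or any 1 DNFB array (-0.30 to -0.35), the second without any 1 non-treated or DNFB array or DPI replicate 3 (-0.27 to -0.34). In DPI + DNFB against DNFB, Hnrnpa2b1 was called higher (0.41). Its probe set 1433830_at was called lower there (-0.67, adjusted p = 0.00122 by limma over all kept probe sets). Hnrnpc, which packages nascent RNA, rose with H2O2 by 0.49 ± 0.11 (log2, adjusted p = 0.00257), and the mean of its probe sets gave 0.27, called. Hnrnpu, a nuclear matrix protein, fell by -0.46 ± 0.12 (log2, adjusted p = 0.00731) with DPI, where the mean of its probe sets was -0.17 and not called, and by -0.50 ± 0.12 (log2, adjusted p = 0.0041) with DPI + DNFB, which the covariate ended (-0.69, with a wider error). Hnrnpf and Hnrnpk were higher with DPI + DNFB than with DNFB by 0.41 ± 0.12 (log2, adjusted p = 0.00826) and 0.43 ± 0.13 (log2, adjusted p = 0.00884). Both calls ended without DPI + DNFB replicate 3 (0.29 and 0.33), that of Hnrnpk also without DNFB replicate 1 (0.36), and both under quantile normalization (0.11 and 0.076) and median centring (0.14 and 0.16). For both genes, 0 of the 3 other kept probe sets were called higher in this comparison by limma over all kept probe sets. Those of Hnrnpf called lower were 1423382_a_at (-0.46) and 1450963_at (-0.82), and that of Hnrnpk was 1423684_at (-0.37, adjusted p = 0.0423). The mean of the probe sets turned the value of Hnrnpf to -0.13 and gave 0.25, not called, for Hnrnpk. Hnrnph2 was called only in DPI + DNFB against DPI, by -0.43 ± 0.16 (log2, adjusted p = 0.0477), with overlapping arrays, and that call ended without any 1 of 11 arrays (all non-treated arrays, DNFB replicates 1 and 2, H2O2 replicates 2 and 3, DPI replicates 2 and 3, DPI + DNFB replicates 2 and 3; -0.29 to -0.43). On the arrays at a target of 250 its value was 0.21, not called. Hnrnpl, the paralog of Hnrnpll, and Hnrnph3 were called in 0 of the 8 comparisons by limma, and in 1 and 2 at an unadjusted p below 0.05.

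**Figure D4:**
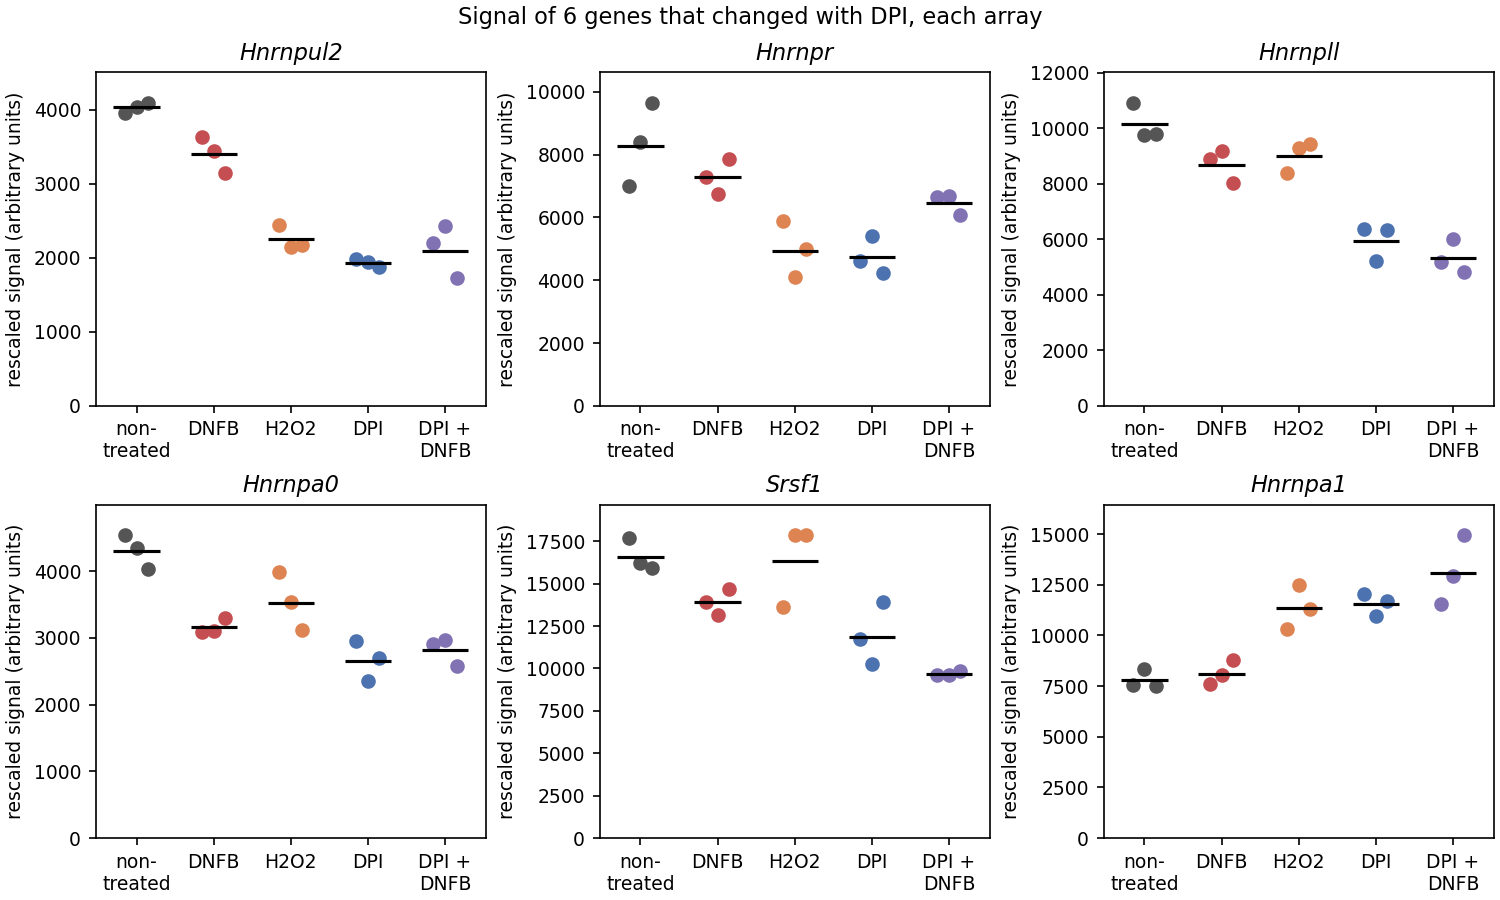
Rescaled signal (arbitrary units, linear axis from 0) of 6 genes called with DPI, on each of 3 arrays per group (points) with the geometric mean (bar). For Hnrnpll the DPI and DPI + DNFB points lie between 4808 and 6387, below all other points, and for Hnrnpa1 the H2O2, DPI and DPI + DNFB points lie above the rest.

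The interaction asked whether the effect of DNFB differed with DPI from that without it. It was called in 15 members, with 12 above 0 and 3 below (31.1% of all genes called, 17.3% higher and 13.8% lower), and the member median was 0.21 against 0.14. The largest values above 0 were those of Hnrnpd (0.88 ± 0.14, adjusted p = 7.51e-05), Sf3a2 (0.77 ± 0.15, 0.000656), Sf3b5 (0.70 ± 0.18, 0.00489) and Snrpb (0.65 ± 0.16, 0.00482), by limma with Benjamini-Hochberg adjustment. For Hnrnpd, DNFB gave -0.73 without DPI and 0.16 with it. For Sf3a2 these were -0.09 and 0.68. Snrpb, called lower with DNFB alone, had -0.35 and 0.30. The 3 negative values were those of Srsf11 (-0.59 ± 0.20, 0.0264), Srsf3 (-0.57 ± 0.18, 0.0218) and Snrpc (-0.41 ± 0.14, 0.0299), by the same test. Other probe sets were called above 0 for Srsf11 (1430077_at, 0.98) and Srsf3 (1416151_at, 0.56), and below 0 for Hnrnpf (1450963_at, -0.66). In the fit over all kept probe sets, 10 members called in the interaction had other kept probe sets. In 1 of them, Hnrnpd, another was called the same way, and in 2, Srsf11 and Srsf3, the opposite way. Non-treated replicate 1, DNFB replicate 3, DPI replicate 3 or DPI + DNFB replicate 3, when left out, ended the call of Srsf11 (-0.42 to -0.57), and non-treated replicate 1, DNFB replicate 1 or 2 or DPI + DNFB replicate 1 that of Srsf3 (-0.39 to -0.54). That of Snrpc ended without non-treated replicate 2 or 3, DNFB replicate 1 or 3, DPI replicate 1 or DPI + DNFB replicate 1 (-0.35 to -0.40). The calls of Hnrnpd, Sf3a2, Sf3b5, Snrpb and Snrpg were kept with each array left out, and median centring ended those of Sf3b5 (0.43), Snrpb (0.37) and Snrpg (0.34). Within the arrays of 1 target 7 and 4 members were called, with the covariate 7, and after median centring 2 higher and 4 lower, the median of all genes then moving from 0.14 to -0.14.

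Several members were read by more than 1 probe set, and these often disagreed. Among 664 pairs of another kept probe set and a comparison, the other probe set had the representative's sign in 461; both were called with the same sign in 81 and with opposite signs in 16, only the representative was called in 131, only the other in 101, and neither in 335. Probe sets of a gene lie at different positions of its transcripts, and those ending in _s_at, _x_at or _a_at can read more than 1 transcript or gene.

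Srsf3 was the widest case. The representative had -0.02 with DNFB, whereas 4 other probe sets were called lower: -0.79, -0.79, -0.98 and -0.55 on the log2 scale. Probe set 1416151_at had 1408, 1398 and 1395 on the non-treated arrays, 743, 890 and 784 with DNFB, 938, 827 and 1025 with H2O2, 1037, 1033 and 887 with DPI and 877, 884 and 746 with DPI + DNFB. All of its treated arrays were below all of its non-treated arrays. Probe set 1438215_at of the same gene moved the other way, with 211, 199 and 263 on the non-treated arrays, 260, 348 and 287 with DNFB, 300, 470 and 340 with H2O2, 345, 519 and 474 with DPI and 1006, 915 and 947 with DPI + DNFB. All DPI + DNFB arrays were above all others, and the change was 2.03 ± 0.20 (SE) with an adjusted p of 7e-07 by limma over all kept probe sets. It was 0.94 with DPI, 0.67 with H2O2, both called, and 0.39 with DNFB, not called. Against DPI alone, DPI + DNFB was higher by 1.09 for this probe set, called, where the representative was called lower.

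For Srsf6, the representative fell with DPI (-0.43) while 1416720_at, 1416721_s_at and 1447898_s_at of the gene rose (0.41, 0.64 and 0.50, all called). With H2O2 the representative alone was called (0.60, against 0.02, 0.06 and 0.07). For Sf3b1, 1418561_at was lower by limma over all kept probe sets with DNFB (-0.69), H2O2 (-0.92) and DPI (-1.19), where the representative was not called, and with DPI + DNFB (-0.64), where the representative was called higher. For Srsf10, 1449121_at fell with DNFB (-0.87) and H2O2 (-0.79), again where the representative was not called. In Hnrnpr, 1427129_a_at fell with DPI + DNFB (-1.10), and in Hnrnpa2b1, 1433829_a_at rose with H2O2 (0.49) while its representative had -0.02.

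**Figure D5:**
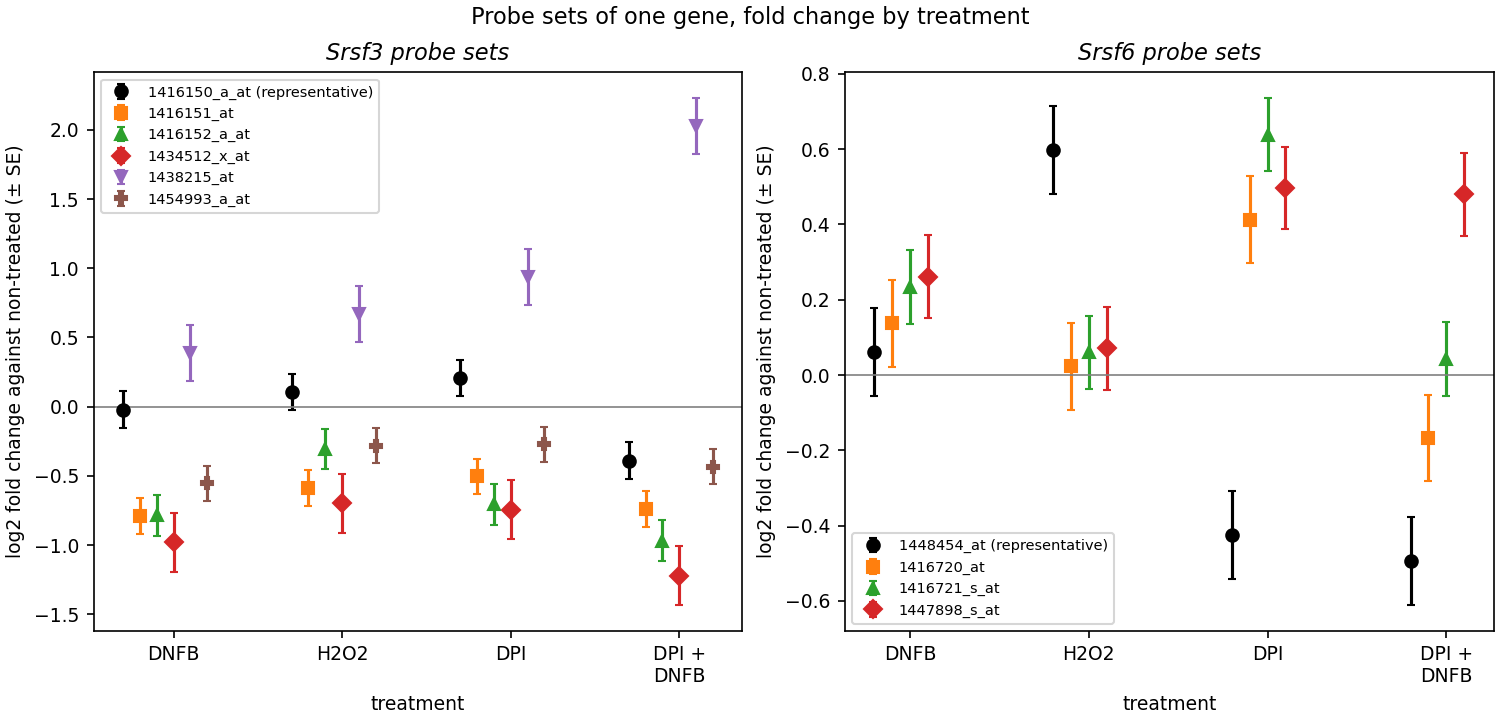
Log2 fold change against non-treated cells (± SE, from 3 arrays per group) of each kept probe set of Srsf3 and Srsf6 for the 4 treatments, with the representative probe set in black. Probe set 1438215_at of Srsf3 rises to 2.03 with DPI + DNFB while the others lie below 0, and for Srsf6 the representative and its other 3 probe sets have opposite signs with DPI.

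Other genes of the splicing pathway were counted from lists by function. Of 24 tested snRNP proteins named outside the 5 symbol stems, 0 rose and 4 fell with DNFB by limma (2 and 6 at an unadjusted p below 0.05), 1 rose and 3 fell with H2O2, 5 and 5 with DPI, and 8 and 3 with DPI + DNFB. They included Prpf31, a U4/U6 protein (-0.93 ± 0.13 with DNFB), Txnl4a, the U5 protein Dim1 (-1.19 ± 0.12 with DPI), and Ddx23, a helicase of the U5 snRNP (1.62 ± 0.22 with DPI + DNFB). Among 12 factors of the branch and 3' splice site, 6 rose and 0 fell with H2O2 by limma (8 and 1 at an unadjusted p below 0.05), led by Ddx42 (0.63 ± 0.15) and the SF3B subunit Phf5a (0.53 ± 0.14), while 0 rose and 1 fell with DNFB (0 and 2 unadjusted). The shares of all genes called in each comparison, given with the members' counts, are the background for these counts and for those of the lists below. Values of genes in these lists come from 1 probe set each. The other settings, left-out arrays and other probe sets were examined gene by gene for the members only.

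Of 22 PRP19-complex and catalytic-step factors, 4 rose and 2 fell with DNFB, 5 and 2 with H2O2, 8 and 3 with DPI, and 4 and 4 with DPI + DNFB. In the interaction 2 were called above 0 and 11 below (59.1% called, against 31.1% of all genes). Over all 22, called or not, 7 were above 0 and the median was -0.50, against 0.14 over all genes. The 11 included Slu7, a factor of the second step (-1.34 ± 0.22), and Syf2 (-1.18 ± 0.16), while Prpf19 itself was at 1.06 ± 0.19. Of 6 exon junction factors, 1 fell with DNFB, 1 rose with H2O2, and 1 rose and 1 fell with DPI and with DPI + DNFB, where Srrm2, a speckle scaffold, had 1.14 ± 0.17.

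Of 21 tested kinases and transporters of SR proteins and factors of snRNP assembly, 4 rose and 3 fell with DNFB, 3 and 3 with H2O2, 1 and 7 with DPI, and 2 and 5 with DPI + DNFB. Clk2, a kinase that phosphorylates SR proteins, had -1.37 ± 0.16 with DPI, Coil, the coilin of Cajal bodies, had -1.18 ± 0.16 with DPI + DNFB, and Prmt5, which methylates Sm proteins before ring assembly, had -0.56 ± 0.13 with DNFB. Of 40 other RNA-binding regulators, 6 rose and 7 fell with DNFB, 6 and 8 with H2O2, 7 and 12 with DPI, and 6 and 12 with DPI + DNFB. Celf2 had the largest fall of this list with DNFB (-1.08 ± 0.11) and with H2O2 (-1.31 ± 0.11), and Mbnl2 rose in both (0.96 ± 0.13 and 0.89 ± 0.13). Tardbp, the TDP-43 protein, had -0.96 ± 0.14 with H2O2 and -1.09 ± 0.14 with DPI, and was called in neither direction with DNFB.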

How the data were processed

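Total RNA of a mouse dendritic cell line, 15 samples in 5 groups of 3, was measured on 3' expression arrays. Per the submitters' processing notes, the deposited values are MAS5 signals from Affymetrix Expression Console, with versions not given in the sources used here. They are intensity on a linear scale, 1 value per probe set, as deposited by the authors, with 0 missing or negative values. Their 2% trimmed mean was 500 on 9 arrays but 250 on DNFB replicate 3 and on every replicate 1, and all were rescaled to 500. Of 45037 probe sets without the 64 array controls, 34945 had 1 gene symbol in the platform annotation, 932 several and 9160 none. Of the 34945, 34741 were named through their gene identifier.

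Signals were taken to log2 after adding 15, probe sets with a mean log2 signal below 6.22, the 40th percentile, were left out, and each gene was read from its brightest probe set on average. Fold changes are therefore on the log2(signal + 15) scale and understate those of dim genes. The 5 group means were fitted to all 15 arrays with limma 3.58.1 in R 4.3.3 (eBayes with trend), with p-values adjusted by Benjamini-Hochberg over 12701 genes, separately for 8 comparisons, and a threshold of 0.05. Other probe sets were fitted with the same model among all kept probe sets. The fit was tested on simulated arrays with known changes and independent noise for each gene and array. That simulation held no scaling targets, replicate structure or differences in RNA integrity, and so tests none of these. The number of arrays limits the precision. Values on every array are given, for each comparison, for up to 4 rises and 4 falls among called members whose arrays did not overlap, and any member could be named. The members, lists and tests were chosen with earlier results of these data known. Alternatives covered the pseudocount, the filter, normalization, probe set choice, blocks, the beta-actin 3'/5' ratio, the arrays of 1 scaling target, the groups compared alone and each array left out. Promoters were searched with Python 3.11.15.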

Additional observations from a re-analysis of the deposited data

Results flagged for a closer look

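The effect of DNFB in the presence of DPI differed from its effect in the absence of DPI, by the interaction term of the limma fit at a Benjamini-Hochberg adjusted p below 0.05, for 15 of the 45 tested members, where 31.1% of all genes passed. On the log2 scale the differences above 0 were 0.88 for Hnrnpd, 0.77 for Sf3a2, 0.7 for Sf3b5, 0.65 for Snrpb, 0.64 for Hnrnpr, 0.62 for Snrpg, 0.53 for Hnrnpa0, 0.5 for Hnrnpk, 0.49 for Hnrnph1, 0.49 for Sf3b3, 0.47 for Hnrnpf and 0.46 for Snrpe. Those below 0 were -0.59 for Srsf11, -0.57 for Srsf3 and -0.41 for Snrpc. Of the 15, 5 kept their call with each array left out in turn: Hnrnpd, Sf3a2, Sf3b5, Snrpb and Snrpg. In the fit over all kept probe sets, 10 called members had other kept probe sets. Another was called the same way in 1 of them, Hnrnpd. The DPI + DNFB arrays enter every one of these differences, and the beta-actin 3'/5' ratio of replicates 1 and 3 (2.07 and 2.29) was above that of the other 12 arrays (1.19 to 1.53), while that of replicate 2 (1.504) was within their range. With that ratio as a covariate 7 members were called. Groups of 3 arrays were not searched for single arrays that stand apart.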

How the results depend on the processing

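Over the 125 calls of a member in a comparison, 1183 of the values under 13 other settings kept direction and threshold side, 432 lost the call and 10 reversed; 75 calls were kept with each array left out in turn. The causes were not tested, except that fewer arrays enter the fits of 1 scaling target, where a group with a lone array is assumed to vary like the others. With each array left out, the counts of members called ranged from 5 to 10 (DNFB), 8 to 13 (H2O2), 14 to 20 (DPI), 16 to 22 (DPI + DNFB), 19 to 25 (DPI + DNFB against DNFB), 8 to 12 (against DPI), 10 to 20 (DNFB against H2O2) and 10 to 16 (interaction). Values as deposited gave 0 in all 8 comparisons with limma; at an unadjusted p below 0.05 they gave 3 for DNFB, 1 for DPI, 8 for DPI + DNFB against DNFB, 3 for DNFB against H2O2 and 0 for the other 4. Median centring gave 5 for DNFB, 10 for DNFB against H2O2 and 6 for the interaction. The beta-actin ratio as a covariate gave 8 for DPI + DNFB, 13 for DPI + DNFB against DNFB, 1 against DPI and 7 for the interaction. The arrays at a target of 500 gave 1 for DNFB, 9 for DPI, 14 for DPI + DNFB against DNFB, 3 for DNFB against H2O2 and 7 for the interaction. Those at 250 gave 3 for H2O2, 11 for DPI, 13 for DPI + DNFB, 3 for DPI + DNFB against DPI, 5 for DNFB against H2O2 and 4 for the interaction. The replicate number as a block (replicate block) gave 17 for DPI + DNFB against DPI, 10 higher and 7 lower, and changed 0 of the 125 calls. The labels do not tie the numbers to a shared culture or day. Deviations of same-numbered arrays correlated at -0.003 to 0.144 (median 0.0735, above 0.1 in 9 of 30 pairs, against 0 of 60 pairs with different numbers), and all 15 arrays were closest to an array of their own number, which is a hint from the data and not from the design. Reversed under quantile normalization were Hnrnpa2b1 (-0.022) and Hnrnpab (-0.004) in DPI + DNFB against DNFB. Reversed for the mean of the kept probe sets were Srsf6 (0.28) and Srsf11 (-0.29) with DPI, Srsf3 (0.17) and Hnrnpf (-0.13) in DPI + DNFB against DNFB, and Srsf3 (0.35), Srsf11 (0.086) and Hnrnpf (-0.054) in the interaction; Hnrnph2 in DPI + DNFB against DPI reversed on the arrays at 250 (0.21). Under quantile normalization the split was 6 higher and 6 lower with H2O2.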
